A study of Homo sapiens with 4 samples.

Results

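The 10 genes described here act on lipid droplets and stored fat: PLIN2 and PLIN3, which coat droplets; HILPDA, G0S2 and PNPLA2, which set the pace of fat breakdown; DGAT1 and DGAT2, which make triglyceride; LPCAT1, which remodels phosphatidylcholine; VLDLR, which takes up lipoproteins; and CPT1A, which admits fatty acids to mitochondria. They are 10 of 20033 protein-coding genes in the RefSeq table of GRCh38.p14, and were chosen by name. Every ATAC-seq peak overlapping a gene span extended by 50 kb on each side was taken, which gave 71 merged regions of 53572 in the whole series. ATAC-seq marks open DNA by the insertions of the Tn5 transposase. The cells were 786-O, an established human line from a clear cell kidney carcinoma, without functional VHL. They were exposed for 24 h to DMSO, the vehicle, or to 5 µM of a compound called ACSS2i in the labels, with 2 libraries per group. Both groups are the same line without any other alteration, so all 4 libraries share its VHL defect. ACSS2 makes acetyl-CoA from acetate, and the question was how ACSS2i alters chromatin accessibility.

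Cells store surplus fatty acids as triglyceride in droplets, which are bounded by a phospholipid monolayer and coated by perilipins. DGAT enzymes add the last acyl chain, PNPLA2 (also called ATGL) starts breakdown, and G0S2 and HILPDA are proteins that inhibit it. Clear cell renal carcinoma takes its name from the lipid and glycogen its cells hold. PLIN2, HILPDA, G0S2 and VLDLR are known as genes raised by hypoxia-inducible factors, and CPT1A as one that they lower.

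The RefSeq promoter table, of the same build, held 7 of the 10 genes. HILPDA, DGAT1 and DGAT2 had no entry. Each sequence covers 250 bases before to 50 after the annotated start, 5′ to 3′ on the strand of the gene. The 4 below are shown because their genes had the most different peak patterns: PLIN2 had a peak in the DMSO lists alone, PLIN3 in all 4 lists, LPCAT1 a peak beside rather than on this window in 3 of them, and CPT1A none. Capitals mark ACGTG, a form of the core of the hypoxia response element, on either strand. The other form, GCGTG, was not searched for and is not marked.
PLIN2 (chromosome 9, 19127443 to 19127742, minus strand): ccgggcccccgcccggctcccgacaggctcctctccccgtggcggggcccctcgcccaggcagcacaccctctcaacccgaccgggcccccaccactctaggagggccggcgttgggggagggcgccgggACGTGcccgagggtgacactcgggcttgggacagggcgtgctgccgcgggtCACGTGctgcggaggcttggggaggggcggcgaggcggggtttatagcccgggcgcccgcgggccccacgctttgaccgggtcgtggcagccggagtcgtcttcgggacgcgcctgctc
PLIN3 (chromosome 19, 4867618 to 4867917, minus strand): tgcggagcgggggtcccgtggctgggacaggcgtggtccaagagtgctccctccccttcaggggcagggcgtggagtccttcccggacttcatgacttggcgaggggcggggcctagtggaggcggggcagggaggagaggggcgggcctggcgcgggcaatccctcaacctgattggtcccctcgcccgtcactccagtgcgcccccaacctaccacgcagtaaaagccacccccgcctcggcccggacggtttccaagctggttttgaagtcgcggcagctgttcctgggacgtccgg
LPCAT1 (chromosome 5, 1523911 to 1524210, minus strand): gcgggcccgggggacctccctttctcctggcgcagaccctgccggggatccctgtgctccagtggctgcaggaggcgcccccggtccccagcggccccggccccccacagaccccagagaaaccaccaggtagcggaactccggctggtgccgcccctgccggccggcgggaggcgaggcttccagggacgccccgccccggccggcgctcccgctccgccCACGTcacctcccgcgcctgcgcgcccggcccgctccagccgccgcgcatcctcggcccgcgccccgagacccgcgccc
CPT1A (chromosome 11, 68844228 to 68844527, minus strand): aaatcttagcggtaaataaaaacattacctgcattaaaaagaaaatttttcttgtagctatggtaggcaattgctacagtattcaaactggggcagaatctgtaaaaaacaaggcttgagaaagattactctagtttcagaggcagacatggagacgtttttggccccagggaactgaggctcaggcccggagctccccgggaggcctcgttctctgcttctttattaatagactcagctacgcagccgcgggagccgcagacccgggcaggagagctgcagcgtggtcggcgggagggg
The PLIN2 window holds ACGTG at bases 131 to 135 and again within CACGTG at bases 182 to 187. CACGTG reads as ACGTG on each strand, so the search counts 3 matches in the PLIN2 window, of which those at bases 182 to 186 and 183 to 187 overlap. The LPCAT1 window holds it at bases 222 to 226, and the windows of PLIN3, VLDLR, G0S2, PNPLA2 and CPT1A hold no match. ACGTG occurs on either strand in 23.7% of 15842 protein-coding promoters of this length and CACGTG in 8.88%, so these matches are common and are a description only. TGANTCA, the AP-1 motif, was in none of the 7 windows and in 5.75% of all. G and C made up 76.7% of the PLIN2 window, 69.0% of PLIN3, 80.0% of LPCAT1, 79.0% of VLDLR, 69.0% of G0S2, 59.3% of PNPLA2 and 50% of CPT1A, against a median of 62.7%.

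Peak lists were made separately for each library. They held 34696 and 50294 peaks for DMSO replicates 1 and 2 and 16400 and 22044 for ACSS2i replicates 1 and 2. The fold is the authors' own value for the summit over its local background. The percentile is the share of peaks in the same list whose −log10 q is no higher. The fragments piled up at each summit were recovered from the fold and p-value columns and divided by the genome background of the library, which was 2.06, 1.75, 2.32 and 3.16 fragments per position in the same order. Read totals were not used here. The weakest peak listed had a summit of 9, 8, 11 and 12 fragments, so a gene without a listed peak can still be accessible below that level. Among renal epithelial markers, KRT8 and KRT18, which share 1 peak, and LHX1 had a gene-end peak in all 4 libraries, PAX8 and CDH6 in 3, and PAX2 and CA9 in none. Of 4 endothelial markers 0 had one in any library. Of 5 immune markers CD68 had one in all 4 libraries and CD14 in DMSO replicate 2. Of 4 adipocyte markers only PLIN1 had one, in 3 libraries, and it lay outside the PLIN1 span.

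Gene ends split the 10 genes into groups. A gene-end peak is one within 1000 bp of either end of the gene span. PLIN3, HILPDA, VLDLR and DGAT1 had a gene-end peak in all 4 libraries. PLIN2 and LPCAT1 had one in each DMSO library and in neither ACSS2i library. PNPLA2 had one in 3 libraries, G0S2 in DMSO replicate 2 and ACSS2i replicate 2, DGAT2 in DMSO replicate 2 alone, and CPT1A in none. Thus 2 of the 7 genes with a peak in each DMSO list had none after ACSS2i, against 18.9% of all such genes (1977 of 10468). In the other direction, 4 of the 7 had a peak in all 4 libraries, against 58% of all such genes. With so few genes neither count is read as particular to them. Of all protein-coding genes, 39.6% lacked a gene-end peak throughout, as CPT1A did.

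**Figure D1:**
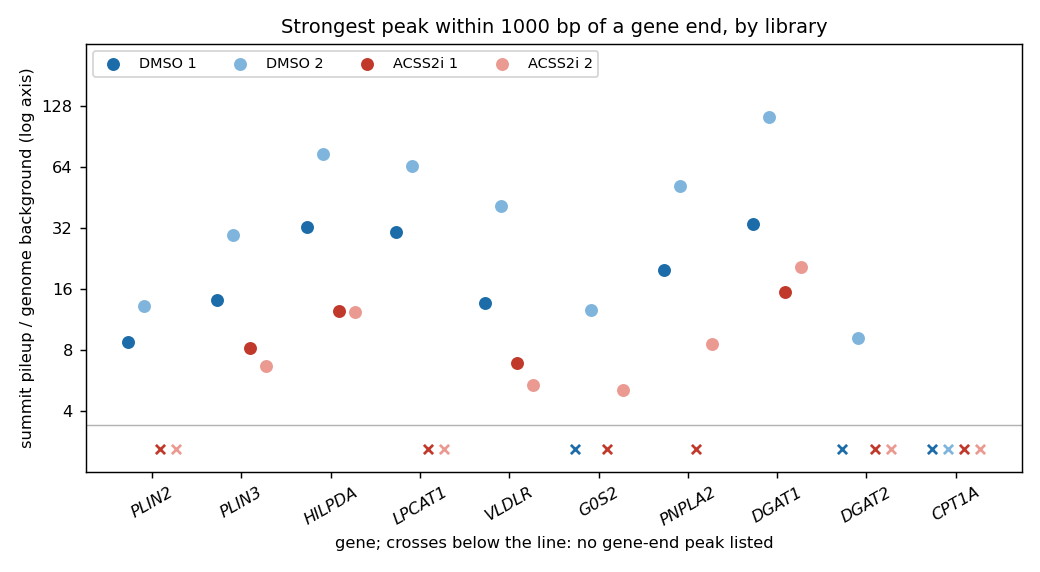
Summit pileup over the genome background of each library (log axis) at the strongest gene-end peak of the 10 genes. Circles are libraries, DMSO in blue and ACSS2i in red, and crosses mark libraries with no gene-end peak. The DMSO circles lie above the ACSS2i circles of the same gene wherever both are drawn. Over the whole series, both ACSS2i libraries lay below both DMSO libraries in 99.2% of the 13306 regions in all 4 lists. DGAT1 reaches the highest value, 114, in DMSO replicate 2.

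PLIN2 (gene ID 123, chromosome 9, 19108388 to 19127492, hg38), the main perilipin outside fat tissue, had a modest peak over its start in the vehicle cells. Its fold was 4.85 in DMSO replicate 1 and 6.08 in DMSO replicate 2, at percentiles 34.6 and 37.96. The summits held 18 and 23 fragments, 8.75 and 13.2 times the background, and lay 101 and 33 bp from the annotated start. No peak was listed there in either ACSS2i library. Both DMSO peaks overlapped the promoter window printed above, by 95 and 200 of its 300 bases. The PLIN2 peak ranked too low in both DMSO lists (22702 and 31201) to remain when each list was reduced to the 16400 strongest peaks, the length of the shortest, so at equal length PLIN2 had no peak in any library.

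PLIN3 (gene ID 10226, chromosome 19, 4838341 to 4867667), a perilipin made in most tissues, kept its peak over the start. The folds were 3.51 and 4.76 in DMSO and 4.03 and 2.63 in ACSS2i, at percentiles 33.6, 52.8, 37.95 and 7.18. The PLIN3 summits stood at 14.1 and 29.7 times the background in DMSO and at 8.20 and 6.64 times in ACSS2i. The groups did not overlap by that measure, as in 99.2% of the 13306 regions in all 4 lists, while the folds overlapped. In DMSO replicate 1 the PLIN2 and PLIN3 peaks had nearly the same percentile, yet only PLIN3 was listed after ACSS2i. In that DMSO library the PLIN3 summit was higher (29 fragments against 18) and the PLIN3 fold was lower (3.51 against 4.85). Why the 2 genes differed was not tested. The PLIN3 peak itself was close to the lower limit of the list in ACSS2i replicate 2. Over the 300 bases of the PLIN3 window printed above, the peaks covered 284 and 300 in DMSO and 266 and 190 in ACSS2i.

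HILPDA (gene ID 29923, chromosome 7, 128455878 to 128458418), the hypoxia-inducible droplet protein that inhibits PNPLA2, had one of the strongest gene-end peaks of the 10 genes. Its folds were 7.80 and 12.3 in DMSO and 5.02 and 4.80 in ACSS2i, at percentiles 95.6, 98.2, 74.8 and 77.9. The HILPDA summits stood at 32.6 and 74.4 times the background in DMSO and 12.5 and 12.3 times in ACSS2i. All 4 summits lay 124 to 172 bp from the lower end of the gene, and the peak was also present in all 4 lists at equal length.

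G0S2 (gene ID 50486, chromosome 1, 209675412 to 209676390), the other inhibitor of PNPLA2, had no consistent pattern by treatment. A peak over its start was listed in DMSO replicate 2, with a fold of 5.43 at percentile 33.0. In ACSS2i replicate 2 its fold was 3.23 at percentile 12.6. Neither replicate 1 library listed it. The 2 libraries with the G0S2 peak were the longer list of each group.

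PNPLA2 (gene ID 57104, chromosome 11, 818914 to 825573), the triglyceride lipase, had a wide peak that began at its start and had its summit well inside the gene. By the 1000 bp rule the peak counted in each DMSO library (folds 4.80 and 6.08) and in ACSS2i replicate 2 (3.54). In ACSS2i replicate 1 a peak with a fold of 5.81 at percentile 83.7 lay in the same place, but its nearer edge was 1111 bp from the start and so it was not counted. The PNPLA2 summits of all 4 libraries lay 2455 to 2484 bp from the start. When the window was 500 bp, PNPLA2 passed into the group with no ACSS2i peak, although the accessible site is listed in every library.

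LPCAT1 (gene ID 79888, chromosome 5, 1461427 to 1523960), which reacylates lysophosphatidylcholine at the droplet surface and elsewhere, showed the same edge effect more strongly. The peak near its start had folds of 6.09 and 6.53 in DMSO, against 4.87 and 3.34 in ACSS2i, at percentiles 89.6, 87.5, 81.6 and 58.1. Its summits held 63 and 114 fragments in DMSO and 36 and 41 in ACSS2i, 1568, 1711, 1776 and 1659 bp inside the gene. The nearer edge of the LPCAT1 peak was 742 bp from the start in DMSO replicate 1 and at 0 in DMSO replicate 2, but 1446 and 1424 bp away in ACSS2i, where the peaks were 438 and 434 bp wide against 1191 and 2338 bp. LPCAT1 therefore lacks an ACSS2i gene-end peak only by the distance rule: the peak was narrower after ACSS2i, and its core was listed in all 4 libraries. Peaks were also narrower over the whole lists, with median widths of 414 and 476 bp in ACSS2i against 565 and 558 bp in DMSO. When gene ends were judged on merged regions, an alternative chosen after seeing the data, PLIN2 was the single gene of the 7 without an ACSS2i peak, against 17.9% of all genes, and 6 of the 7 had a peak in all 4 libraries, against 59.5%. The promoter window printed above was covered by a peak in DMSO replicate 2 alone, in full.

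DGAT1 (gene ID 8694, chromosome 8, 144314584 to 144326852) makes triglyceride from diacylglycerol in the endoplasmic reticulum. Among the gene-end peaks of the 10 genes, it had the highest summit pileup and percentile in every library. In DMSO replicate 2 the fold of HILPDA was higher. In ACSS2i replicate 1 the LPCAT1 peak, outside the distance rule, held 36 fragments, as DGAT1 did. The DGAT1 folds were 8.23 and 11.2 in DMSO and 5.99 and 5.46 in ACSS2i, at percentiles 96.7, 99.8, 89.3 and 95.7. The DGAT1 summits stood at 33.5 and 114 times the background in DMSO and 15.5 and 20.5 times in ACSS2i, each within 42 bp of the upper end. DGAT2 (gene ID 84649, chromosome 11, 75768778 to 75801534), which catalyses the same step but is unrelated in sequence, was nearly without a gene-end peak. It had a single one, in DMSO replicate 2, with a fold of 3.55 at percentile 11.2. In DMSO replicate 2 the summit of DGAT1 held 199 fragments and that of DGAT2 16.

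VLDLR (gene ID 7436, chromosome 9, 2621787 to 2660056), a receptor for triglyceride-rich lipoproteins, had a peak over its start in all 4 libraries. The folds were 5.14 and 7.90 in DMSO and 4.06 and 3.15 in ACSS2i, at percentiles 53.4, 79.0, 29.3 and 12.7. In DMSO replicate 1 and both ACSS2i libraries a separate peak lay further inside the gene, with summits 1892, 1902 and 1906 bp from the start. In DMSO replicate 2 both sites were joined in a single peak of 2685 bp. The inner VLDLR peak had the higher fold in ACSS2i, 4.44 and 4.396. At a −log10 q of at least 5 the gene-end peak was left in the DMSO lists only, and VLDLR then counted with PLIN2 and LPCAT1 among genes without an ACSS2i peak.

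CPT1A (gene ID 1374, chromosome 11, 68754620 to 68844277), the carnitine palmitoyltransferase of the outer mitochondrial membrane, had almost no listed peak. Within its extended span of 190 kb, the longest of the 10, a single peak was listed in a single library. That peak (68838872 to 68839568) lay inside the gene 4.71 kb from the upper end in DMSO replicate 2, with a fold of 4.42 at percentile 21.7. The CPT1A window printed above overlapped no peak in any library.

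**Figure D2:**
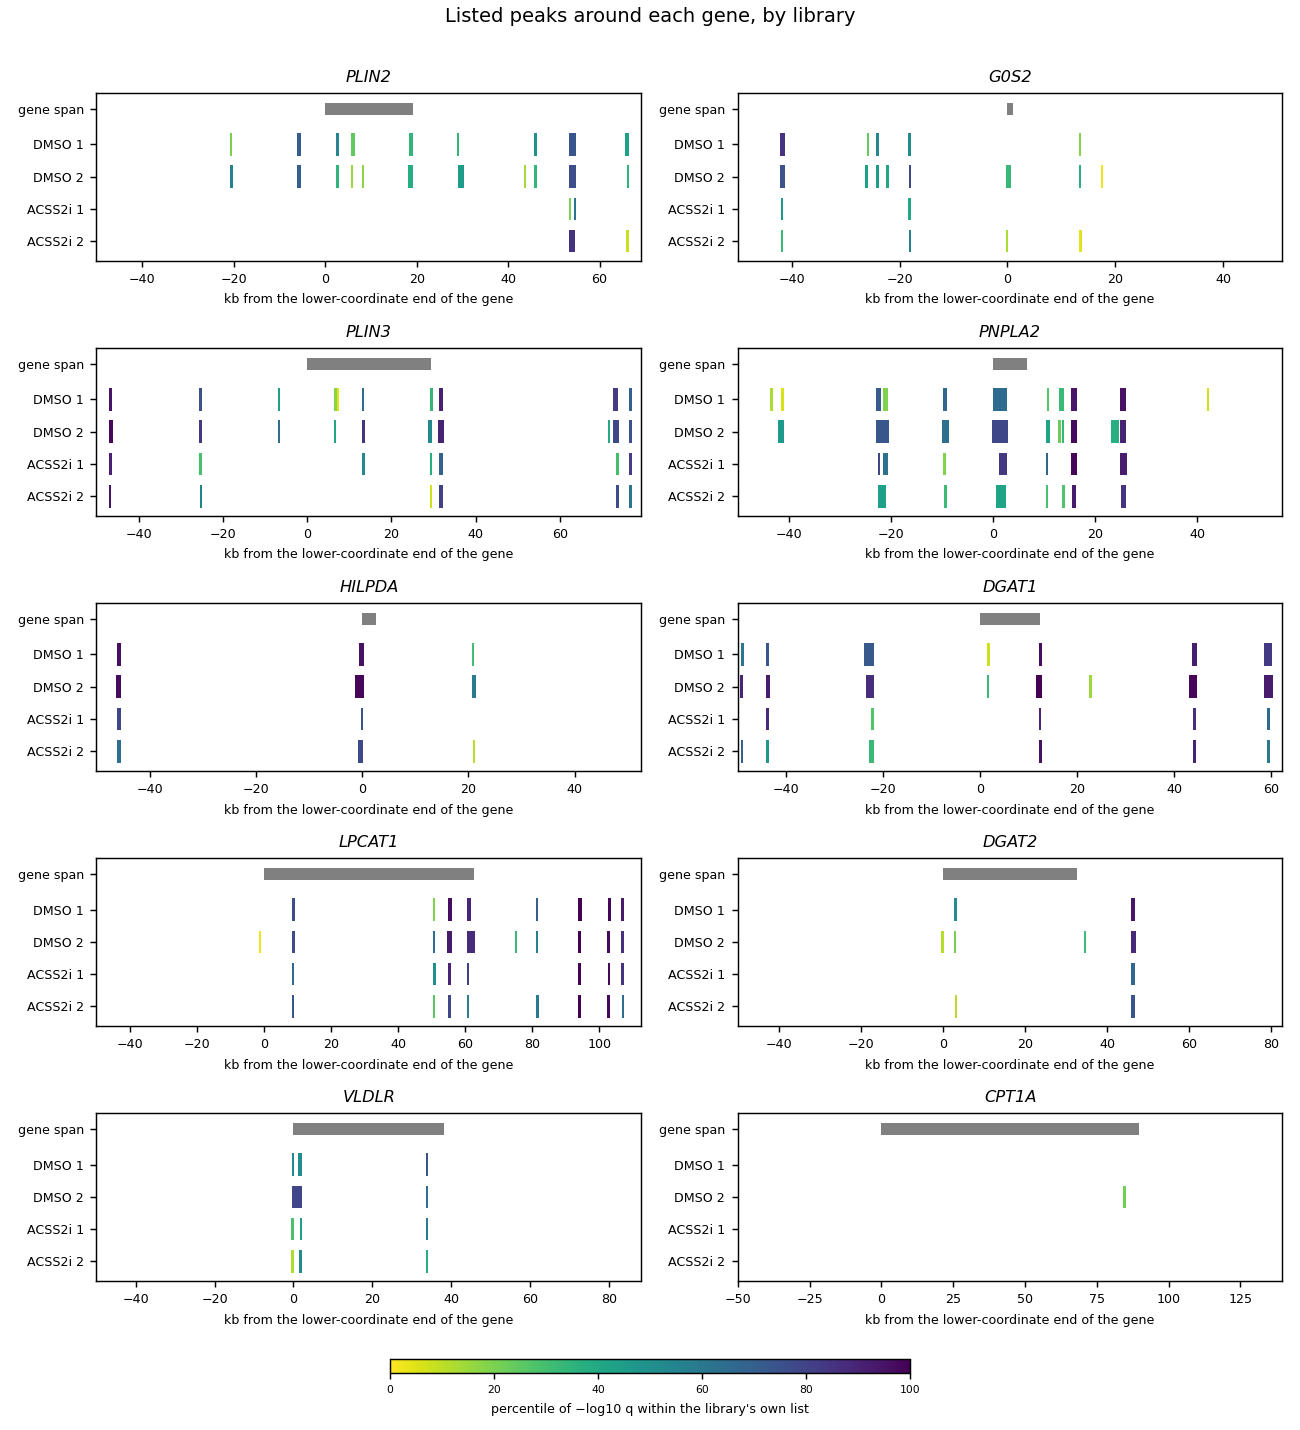
Peaks listed around each gene in the 4 libraries, as distance in kb from the lower-coordinate end of the gene, with the gene span in grey and colour giving the percentile of −log10 q within the list; narrow peaks are widened to be visible. The PLIN2 panel is nearly empty in the ACSS2i rows, the LPCAT1 panel keeps its dark peaks in every row, and the CPT1A panel holds a single peak.

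Beyond the gene ends, PLIN2 had the most regions that were absent from the ACSS2i lists and LPCAT1 the most that were in all 4 lists. The windows of the 10 genes held 58 and 69 peaks in the DMSO libraries and 36 and 41 in the ACSS2i libraries, or 63.5 ± 7.78 against 38.5 ± 3.54 (SD, n = 2 per group). The groups did not overlap, but 2 libraries against 2 cannot give a two-sided exact permutation p under 0.333, which is the p found. As a share of the list, the windows held more in ACSS2i, 0.220% and 0.186%, than in DMSO, 0.167% and 0.137%. Merging gave 53 regions with a peak in both DMSO libraries. Of these, 13 (24.5%) had no ACSS2i peak, against 33.5% of all such regions in the series, and 32 were in all 4 lists, against 42.2%. No region of the windows had a peak in both ACSS2i libraries and no DMSO peak. The count of 13 became 28 of 69 without DMSO replicate 1 (55.9% in the series) and 20 of 53 without ACSS2i replicate 2 (52.2%).

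PLIN2 alone gave 7 of those 13 regions. Of its 9 regions listed in each DMSO library, 7 were in neither ACSS2i list, 1 had a peak in ACSS2i replicate 2 and 1 in both. Over the whole series, 33.5% of such regions were in neither ACSS2i list. Without the PLIN2 window, 6 of 44 regions (13.6%) had no ACSS2i peak. The regions around PLIN2 were weak in vehicle cells: the lower of the DMSO percentiles had a median of 34.6, against 70.8 over the other windows and 51.4 over all 31506 regions in both DMSO libraries. They included sites inside the gene (19110789 to 19111320, folds 5.76 and 5.38, and 19114035 to 19114991, 3.62 and 3.39) and one 9.84 kb beyond its start (19137328 to 19138653, 4.81 and 6.92). The strongest of the PLIN2 regions without an ACSS2i peak lay 5.20 kb past the lower end of PLIN2, at the end of the neighbouring gene HAUS6, which encodes a subunit of the augmin complex of the spindle (19102233 to 19103186). Its folds were 7.02 and 9.44, at percentiles 70.3 and 70.1. At equal list length that was the 1 of 29 window regions with no ACSS2i peak, against 6.41% in the series. The only PLIN2 region in all 4 libraries lay 34.2 kb beyond the start (19161663 to 19163289), with folds of 6.07 and 8.33 in DMSO against 5.12 and 6.39 in ACSS2i.

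Around LPCAT1, 7 of the 8 regions in both DMSO libraries were listed in all 4, against 42.2% in the series, and none was absent from both ACSS2i lists, against 33.5%. A region 31.1 kb beyond the start (1555082 to 1556142) was the strongest of all windows. It had folds of 10.7, 13.97, 8.17 and 7.34 in DMSO replicates 1 and 2 and ACSS2i replicates 1 and 2, and percentiles of 99.9, 99.98, 99.3 and 99.7. A neighbour 39.8 kb beyond the start (1563740 to 1564873) had folds of 7.06, 7.82, 6.65 and 6.06, all at percentile 97.6 or higher. Both lay between protein-coding gene spans. Within LPCAT1, the region from 1516111 to 1517386 had folds of 6.58, 6.52, 5.23 and 3.73.

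The counts of the other windows are to be read against the same series shares, 42.2% in all 4 lists and 33.5% with no ACSS2i peak, and each rests on 9 regions or fewer. Around PLIN3, 6 of 9 regions in both DMSO libraries were in all 4 lists and 2 had no ACSS2i peak. The strongest distal sites there were the end of FEM1A, with folds of 9.44, 12.8, 7.28 and 6.78, and a site 1.73 kb outside PLIN3 on its start side, with 6.99, 8.88, 4.98 and 4.96. The PNPLA2 window, which holds 13 protein-coding genes with it, had 6 of 8 in all 4 lists, the strongest being a site inside CD151 (834180 to 835393) with folds of 6.096, 7.86, 7.85 and 5.48 and an end of TSPAN4 with 7.54, 7.49, 6.86 and 5.14. The DGAT1 window, with 10 such genes, had 5 of 7, of which the strongest distal ones were the shared end of FBXL6 and SLC52A2, with folds of 7.63, 10.5, 5.94 and 4.8, and an end of ADCK5, with 6.39, 9.19, 4.86 and 3.89. G0S2 had 2 of 5, a region inside LAMB3 (209633270 to 209634228) with folds of 7.38, 9.38, 4.28 and 3.34 and one 17.9 kb before G0S2 with 4.41, 7.49, 4.01 and 4.07. The HILPDA, VLDLR and DGAT2 windows had 3, 2 and 2 regions in both DMSO libraries, and each of these had a peak in at least 1 ACSS2i library. VLDLR held a region inside the gene with folds of 7.65, 10.4, 5.34 and 4.32, HILPDA the end of IMPDH1 with 8.28, 9.12, 5.24 and 3.81, and DGAT2 the end of UVRAG with 9.29, 9.41, 5.37 and 5.32. An end of METTL2B near HILPDA and a site inside DGAT2 were listed in 3 libraries, without ACSS2i replicate 1.

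**Figure D3:**
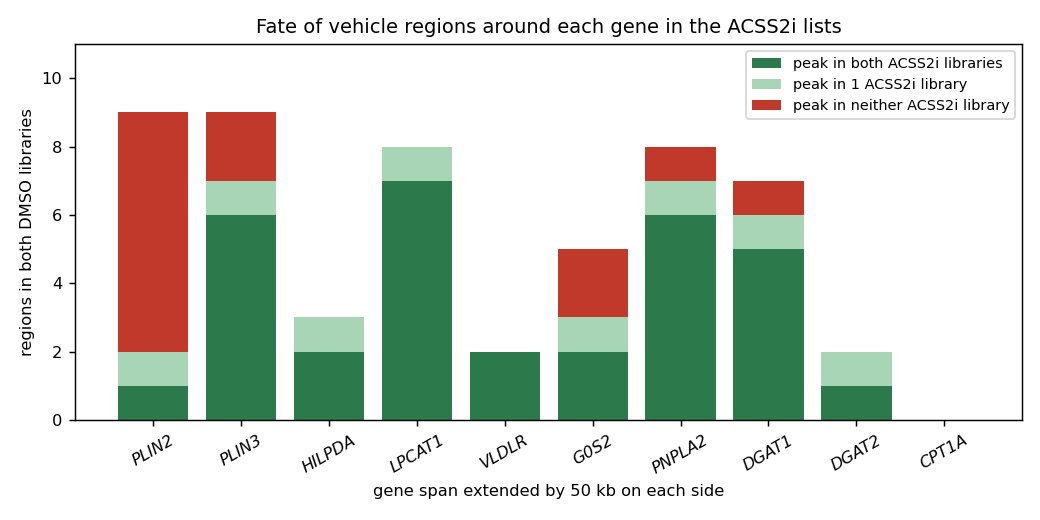
Merged regions with a peak in both DMSO libraries within 50 kb of each gene span, as stacked bars by the number of ACSS2i libraries that list them. PLIN2 has 7 of 9 regions in neither ACSS2i library, LPCAT1 0 of 8, and CPT1A has no region in both DMSO libraries. Over the whole series, 33.5% of regions in both DMSO libraries are in neither ACSS2i library.

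By position, regions at another gene's end had no ACSS2i peak in 5 of 17 cases and those at a member's own end in 1 of 7, against 20.7% of all regions near a gene end. Regions inside a member had none in 3 of 9 cases and those between or in other genes in 4 of 20, against 39% of all regions away from gene ends. By strength in vehicle cells, window regions without an ACSS2i peak had a median lower DMSO percentile of 34.0, and those in all 4 libraries one of 76.8. The same medians over the whole series were 25.3 and 76.5.

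Where regions were listed in all 4 libraries, the signal over background could be set side by side. There were 32 such regions in the windows. In all 32 the signal over genome background was lower in ACSS2i without overlap of the 2 groups, against 99.2% of the 13306 in the series. By fold, which is taken over the local background, the groups overlapped at some of these regions, among them the PNPLA2 gene end. The share without overlap by fold was not computed. Median signal was 22.4 and 53.2 times the background in DMSO and 12.5 and 12.01 times in ACSS2i. The median log2 ratio of ACSS2i to DMSO was -1.77 in the windows and -1.77 over the series, so the regions around these genes moved with the whole list. That value was -1.04 without DMSO replicate 2, for which the series median was -1.05.

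Within that range the genes differed in order. Leaving VLDLR aside, the gene-end ratio was lowest at HILPDA (-2.11) and DGAT1 (-2.03), at the 9.45 and 15.2 percentiles of all regions. It was highest at PLIN3 (-1.56, percentile 78.7). LPCAT1 and PNPLA2 lay between, at -1.75 and -1.70. The VLDLR region gave -1.84, but its strongest summits were at the start in DMSO and at the inner site in ACSS2i. At the start, the VLDLR summits stood at 13.6 and 41.2 times the background in DMSO and 6.91 and 5.37 times in ACSS2i. VLDLR is therefore not placed in this order. Away from the gene ends, the lowest values were at the shared end of BOP1 and HSF1 in the DGAT1 window (-2.19) and at IMPDH1 beside HILPDA (-2.17). The highest were a site in CRACR2B beside PNPLA2 (-1.20) and a site inside LPCAT1, 8.43 kb from its lower end (-1.25). By fold the groups overlapped at the CRACR2B site, with 3.15 and 3.59 in DMSO and 4.90 and 3.02 in ACSS2i. Differences between single genes were not tested.

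**Figure D4:**
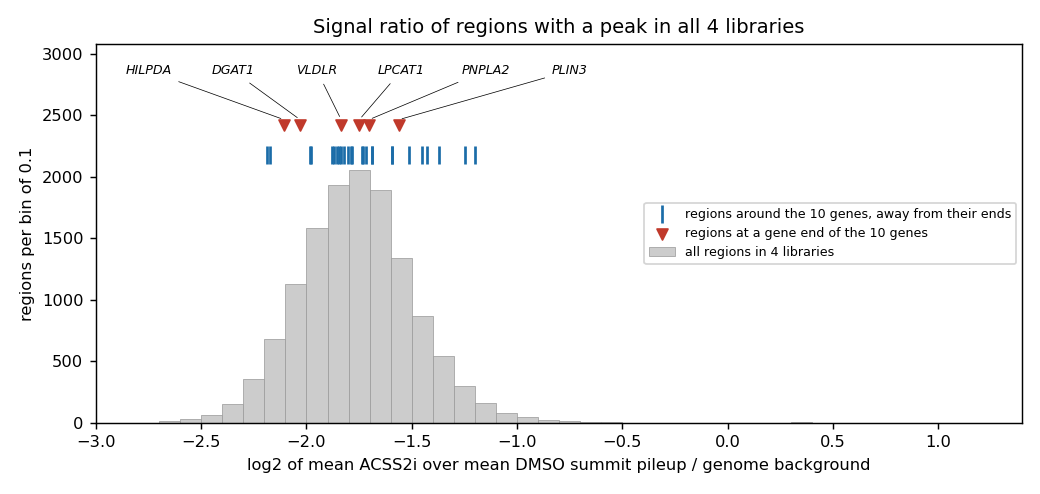
Distribution of the log2 ratio of ACSS2i to DMSO signal over genome background in the 13306 regions listed in all 4 libraries (grey bars, bins of 0.1). Blue ticks are the regions around the 10 genes away from their ends and red triangles those at their ends, from HILPDA at -2.11 to PLIN3 at -1.56, all inside the main body of the distribution. The VLDLR triangle sets summits at the start in DMSO against summits at the inner site in ACSS2i.

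The rest of the lipid storage pathway was followed in 73 other genes sorted by role. Of 43 with a gene-end peak in each DMSO list, 6 had none in ACSS2i (14.0%, against the 18.9% of all genes), 23 had one in all 4 libraries, and 0 showed the opposite pattern. The 6 were SOAT2, which esterifies cholesterol, MGLL, the monoglyceride lipase, SCARB1, a lipoprotein receptor, ACSL1, which activates fatty acids, and PPARA and SREBF1, which are regulators of fat oxidation and synthesis. Their DMSO folds ranged from 2.86 for MGLL to 8.47 for ACSL1. The PPARA peaks of DMSO replicates 1 and 2 lay at separate sites, and the MGLL peaks shared only their edges. The SOAT2 peaks lay by the upper end of its span. Without ACSS2i replicate 2, 17 of 43 had no ACSS2i peak, against 38.1% of all genes, and without DMSO replicate 1, 11 of 49, against 28.5%.

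By role, a gene is counted as lost where DMSO replicates 1 and 2 listed its gene-end peak and neither ACSS2i library did, and as kept where all 4 listed it. Of all genes with the peak in each DMSO list, 18.9% were lost and 58% kept, and each role below rests on 8 such genes or fewer, so no role is read as apart from that background. Both words describe the lists and not a tested change. Droplet coat and assembly genes lost 0 of 5, and 7 of 13 lacked such a peak throughout, among them PLIN4, CIDEA, CIDEB, CIDEC and the seipin gene BSCL2. ACSL3, which activates fatty acids for droplet growth, had folds of 5.94, 12.05, 6.71 and 5.30. PLIN1, the adipocyte perilipin, was counted through a peak outside its span with folds of 7.92 and 11.5 in DMSO and 4.08 in ACSS2i replicate 2. Triglyceride synthesis genes kept 6 of 8 in all 4 libraries and lost 1. MOGAT1, a monoacylglycerol acyltransferase, had folds of 9.56, 14.0, 9.30 and 9.50 at its upper end, and the phosphatidate phosphatase LPIN3 7.76, 9.76, 4.17 and 3.89. Phospholipid genes lost 0 of 5, with folds of 9.15, 10.8, 5.04 and 5.51 for PEMT and 7.41, 12.5, 3.81 and 5.27 for PCYT1A, both of phosphatidylcholine synthesis.

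Against the same 58% kept and 18.9% lost over all genes, lipolysis genes kept 1 of 4 and lost 1. The kept gene was the lipase DDHD2, with folds of 9.26, 9.63, 5.73 and 4.08, while ABHD5, the activator of PNPLA2, had 7.99 and 11.5 in DMSO and 4.80 in ACSS2i replicate 2. Uptake genes kept 3 of 5 and lost 1. SLC27A4, a fatty acid transporter, had 5.61, 9.46, 4.50 and 3.33, and the fatty acid binding protein gene FABP5 4.90 and 7.60 in DMSO and 3.87 in ACSS2i replicate 2. Mitochondrial oxidation genes kept 5 of 8 and lost 1, counting HADHA and HADHB, which share a peak. In contrast to CPT1A, CPT2, which completes the same shuttle at the inner membrane, had folds of 6.61, 11.5, 5.27 and 5.44, and the carnitine acetyltransferase CRAT 8.70, 9.52, 4.97 and 3.93. Regulators kept 2 of 8 and lost 2. SREBF2, the sterol regulator, had 6.24, 9.30, 5.18 and 5.45, and the nuclear receptor gene PPARD 7.92 and 10.3 in DMSO and 4.22 in ACSS2i replicate 1.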

How the data were processed

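The files are peak lists of 4 ATAC-seq libraries, grouped by treatment as the labels give it. Nothing in the labels says that replicates were separate cultures, so p-values bear only on these 4 libraries. They come from exchanging group labels among the libraries and do not measure the spread between replicates. MACS2 2.1.2, Bowtie2, Picard 2.18.26 and the hg38 build are named for these lists, per the submitters' processing notes, which also list Trimmomatic 0.38 and SAMtools 1.9. The filter, caller options and Tn5 shift were not given in the sources used. The fold ratio, the −log10 p and the −log10 q columns deposited by the authors are values per summit within a library, with 2 as the lower limit of −log10 q. The score column deposited by the authors is the q-value rescaled and was not used.

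Summits sharing an interval were 1 peak with the values of the strongest. Peaks overlapping by 1 bp or more were merged into regions. Pileup and background were solved from fold and −log10 p as a Poisson tail, matching within 0.001 for 100% of summits. This and the gene-end call were tested on simulated data. Starts and strand came from the RefSeq promoter table. Genes were named by a rule: all 10 members, in each window the 2 distal regions with the highest lower DMSO percentile, and in each pathway role the genes without an ACSS2i peak and the 2 strongest. One renal marker is not reported here. Other regions and genes in the text were chosen after their values were seen. The members and lists were chosen with earlier results of these data known. The alternatives tried were a 500 bp window, the start end only, a 25 kb flank, −log10 q of at least 5, equal list length, a 50 bp overlap, each library left out, a replicate block and merged regions. Python 3.11.15, pandas 2.3.3, numpy 2.4.6, scipy 1.17.1 and matplotlib 3.10.9 were used.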

Additional observations from a re-analysis of the deposited data

How the results depend on the processing

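Absence from a list means a signal below its threshold, and the ACSS2i lists are shorter, so presence depends on list length. At equal list length (16400 peaks), 1 of the 10 genes (LPCAT1, no longer PLIN2) had a DMSO gene-end peak and none in ACSS2i, 2 of 5 had a peak in all 4 libraries, 1 window region of 29 had no ACSS2i peak and 2 had ACSS2i peaks alone (sites in LPCAT1 and CRACR2B that all 4 full lists hold), and 1 of 28 pathway genes had no ACSS2i peak, where 5.27% of all genes had none and 79.5% had all 4. The series share of regions with ACSS2i peaks alone at equal length was not computed, so those 2 are not read as particular to these windows. The difference in window peaks, ACSS2i minus DMSO, turned from -25 to 3 (exact permutation p = 0.667). At −log10 q of at least 5, 2 of 7 genes kept all peaks (43.5% of all genes) and 11 of 39 pathway genes had no ACSS2i peak (29.8%). With the start end alone, which 7 of the 10 genes allow, 2 of 5 kept all peaks (58.01% of all genes) and 3 of 30 pathway genes had none (18.2%). On merged regions 1 gene, PLIN2, had none. Leaving out each library in turn gave 14 to 28 window regions and 6 to 17 pathway genes without an ACSS2i peak, and the latter was 11 without DMSO replicate 1. With the replicate block the difference in window peaks stayed -25 (exact permutation p = 0.5, the smallest for 2 pairs), and the median log2 signal ratio was -1.64.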
